A study of Mus musculus with 3 samples.

Results

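The part described here is a stretch of mouse chromosome 9, from chr9:50411503-50412191 to chr9:99476096-99476395 in the mm9 build. As on chromosome X, most promoter fragments of this stretch were sampled far more deeply than the median of other promoters of the series. Its members were chosen by their depth of capture, which set the limits, and were all viewpoints of the chromosome that start within them, and 158 of the 7176 viewpoints with contacts and a name of their own met this rule. A further 2 viewpoints in range share the name Ick and were left out, because their counts cannot be separated. Contacts were measured by nuclear-titrated Capture-C, in which chromatin is cut with DpnII and religated, so that neighbours in the nucleus become joined, and probes then enrich the joined products of chosen promoter fragments, called viewpoints. The cells were CD71+ ter119+ erythroid cells from the spleens of F1 hybrids of the strains C57BL/6 and CBA/J that had received 3 doses of phenylhydrazine, 12 h apart, and were killed on day 5. This drug destroys red cells, so that the spleen fills with erythroid precursors, and cells were then selected with an antibody to ter119. All 3 libraries form 1 group with no control, so no test between groups of samples could be made. The columns of the table carry no names, so the letters a, b and c stand for the libraries in column order. Contact counts hold no measure of expression, so the cell type could not be checked against marker genes. Nothing in the labels says whether the libraries came from separate mice, so the spread between them may be technical.

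Chromosomes fold into contact domains, within which promoters meet nearby sequence more often than sequence across a domain edge. Many edges are bound by CTCF, a zinc finger protein that halts the cohesin complex as it extrudes loops, and its motif has a direction. Over longer distances, active gene-rich chromatin tends to meet other active chromatin, and silent gene-poor chromatin tends to meet its own kind. The genes of the stretch serve general cell functions. They include Sdhd, a subunit of succinate dehydrogenase, Atm and Atr, kinases of the DNA damage response, Eef1a1, which brings aminoacyl tRNA to the ribosome, and Tmod3 and Tpm1, which cap and coat the actin filaments of the membrane skeleton.

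The sequences that bear on the results are those of CTCF motifs at positions where contacts of several members fell away together, and a stretch of the Mthfs viewpoint that recurs nearby. The motif was searched on both strands as CCA, any 2 bases, AGG, any base and GGC, and its match is printed in capitals, read 5′ to 3′ on the strand that holds it.
Edge near Cspg4, chr9:56739386-56739415, plus strand: gtaaattggCCACTAGGTGGCaatatccac
Edge near Cspg4, chr9:56734087-56734116, minus strand: cctcggccaCCACCAGGGGGCtgatggtaa
Edge near Loxl1, chr9:58143724-58143753, plus strand: tatgtctggCCAGCAGGAGGCtcagacgca
Edge near Loxl1, chr9:58148629-58148658, minus strand: ctgtggaggCCAGAAGGTGGCatcagatcc
Edge near Foxl2, chr9:98855703-98855732, plus strand: ctagggactCCAGGAGGCGGCtgcgccaga
Edge near Foxl2, chr9:98860970-98860999, minus strand: ttttacctaCCACCAGGGGGCtctctctac
Mthfs viewpoint, chr9:89105352-89105381: GCTTCTCAAATCTACTTACTTTGTTCTCTG
The last sequence, in capitals because all of it is repeated, also occurs on the minus strand at chr9:88615267-88615296, and it is the first of 941 words of 30 bases that the 1312 bp Mthfs fragment shares with a fragment there.

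Depth chose the members, so their depth is a description. The median member had 14564 cis events (unique ligation events on the same chromosome) in a, 25850 in b and 25819 in c, and the median of the summed events was 64839. This was 10.3 times the median of 6293 events of the other viewpoints. Members made up 2.20% of the viewpoints and held 13.3% of all cis events. The rise was broad but not uniform, since the quartiles of the members were 41335 and 101915 events and 2 members lay below the median of the other viewpoints. The deepest members were Senp8_Myo9a with 175487 events, Tmod3 with 163133 and Dis3l, an exosome ribonuclease, with 156600. The shallowest were Faim, an inhibitor of apoptosis, with 4949 events, Csk, a kinase that restrains Src, with 5921 and the corepressor Tle3 with 9800.

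Depth changed at both ends. Below the stretch, Usp28 had 7797 events, Zw10 4899 and Pts, an enzyme of tetrahydrobiopterin synthesis, 7650. The first member, Timm8b_Sdhd, lay 74.3 kb past Pts and had 44949 events, with 11401 in library a, 16851 in b and 16697 in c. Above the stretch, Nck1 had 15885 events, Stag1 8815 and Pccb 18863, against 58565 in the last member, Dbr1, which encodes the lariat debranching enzyme. Dbr1 and Nck1 lie 969 kb apart with a step of 3.69-fold, so the place of the change is less well set there than at the lower end, where the step was 5.88-fold. Fragments of members had a median length of 812 bp and 58.9% GC, and those of the rest of chromosome 9 had 754 bp and 59.1%. Among the 158 members, the correlation of log10 depth was 0.26 with log10 length and -0.15 with GC content. Chromosome X, with 201 viewpoints, had a median of 56954 events.

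**Figure D1:**
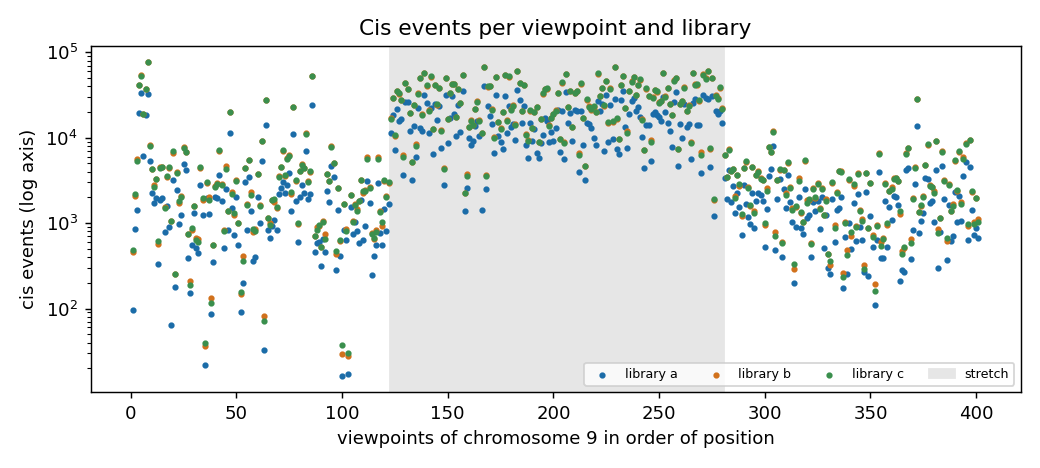
Cis events (log axis) of each viewpoint of chromosome 9 in each library, with viewpoints in order of position and the stretch shaded. All 3 libraries step up at the same viewpoints, from 1668 events of Pts to 11401 of Timm8b_Sdhd in library a.

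Profiles of members were alike between libraries. In windows of 5 kb from 2.5 kb to 1 Mb, the median squared correlation between libraries over members was 0.959 between a and each of the others, and 0.972 between b and c. For the other 6560 viewpoints with at least 1000 events the same pairs gave 0.840 for a with b, 0.839 for a with c, and 0.877. The least steady member was the shallowest, Faim, with a mean of 0.772. When member counts were thinned to the median depth of the other viewpoints, the mean over pairs of libraries dropped from 0.963 to 0.710, below the values of the other viewpoints. Counts of b and c differed by 1.0504 chi-square units per degree of freedom, just above the limit set on member counts for treating them as 1 sample (1.0486 in the other viewpoints, below it), while a differed from b by 1.20 and from c by 1.19. All 3 were therefore kept as separate libraries. With b and c averaged as 1 sample, the SD of the share of member events over 10 Mb away was 2.35 (n = 2), against 1.92 (n = 3).

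Contacts per fragment fell with distance in members, as elsewhere. Contacts over 10 Mb away made up 41.6% ± 1.92 (SD, n = 3) of member events, and those from 1 to 10 Mb 24.0% ± 0.639 (SD, n = 3). In the rest of chromosome 9 these shares were 39.1% ± 2.38 and 21.4% ± 0.838. The share over 10 Mb there was 36.3% in a, 40.5% in b and 40.5% in c, below that of members in each library. These shares pool events, so deep viewpoints weigh more. The median over viewpoints was 41.1% in members and 32.8% in the rest of chromosome 9. Library a held 39.4% of member events over 10 Mb, against 42.8% in b and 42.7% in c. Events within 10 kb made up 3.99% ± 0.626 (SD, n = 3), against 6.20% ± 0.953 in the rest of chromosome 9 and 6.57% ± 0.920 in the other autosomes. Chromosome X, also deeply sampled, was nearer to the stretch, with 4.83% within 10 kb and 42.0% over 10 Mb. Each of the 3 libraries had a lower share within 10 kb in the stretch than in the rest of the chromosome. Herc1, a ubiquitin ligase, had the smallest share over 10 Mb, with 17.3% in library a, 19.5% in b and 20.5% in c. Its neighbours Dapk2, a death-associated kinase, and Fam96a followed with 19.8% and 21.7% in the sum, then Dennd4a with 24.4% and Vwa9 with 24.6%. The largest shares were those of Ttk, a kinase of the spindle checkpoint, with 59.9% in a, 61.1% in b and 60.8% in c, then Cep162 and Cox7a2 with 56.2%, and Ibtk and Senp6 with 55.9%. These members were picked as the extremes of the summed share, so the gap between the lowest and the highest was fixed by the choice.

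**Figure D2:**
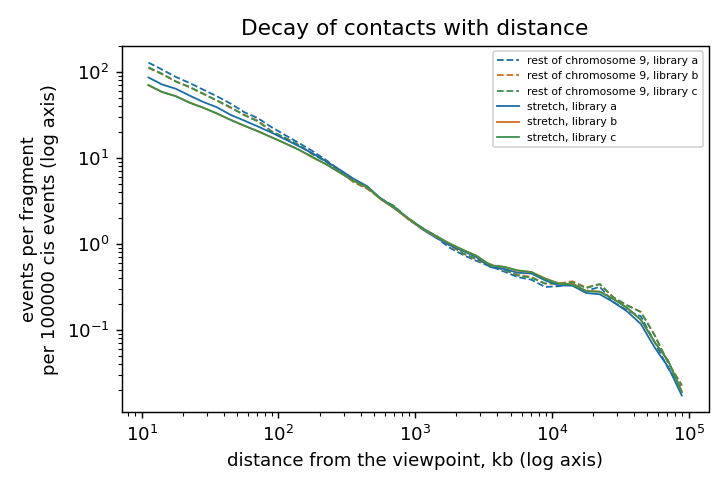
Events per testable fragment and 100000 cis events (log axis) against distance from the viewpoint (log axis), for members (solid lines) and the rest of chromosome 9 (dashed lines) in each library. Members lie below the other viewpoints at short distances (3.99% against 6.20% of events within 10 kb) and the lines cross near 282 kb, where they stand at 7.29 and 7.21 in library a, then part again, with members higher near 8913 kb (0.378 and 0.317) and lower near 22387 kb (0.260 and 0.318).

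Near contacts leaned to a side in some members. The side was chosen in libraries b and c and measured in a, over 2.5 to 500 kb. The median share on the larger side was 56.8% in members and 56.8% in the other viewpoints, so the stretch as a whole did not stand apart. Tpm1, a tropomyosin, was the most one-sided member, with 82.4% of near events on its left in a, 82.2% in b and 82.4% in c. It was followed on the left by Cul5, a cullin scaffold of ubiquitin ligases, with 76.8% in a, the kinase gene Sik2 with 76.7% and Dbr1, and on the right by the splicing factor gene U2surp with 74.9%. Cryab, Spg21, Edc3, Atp1b3 and Map2k1 had the lowest shares, from 48.8% to 50.1% in library a.

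Edges of contact domains were placed as the best step down in observed over expected events away from the viewpoint. The expected count follows from distance, viewpoint total and the number of fragments. A step set in b and c was called clear when the ratio of the outer to the inner 100 kb was at most 0.5 there and also in a. Among members, 89 of 316 sides (28.2%) held a clear edge, whereas 37.6% of sides of all viewpoints did, so that clear edges were not more frequent in the stretch. On chromosome X, where depth was also high, the share was 21.9%. With member counts thinned, 84 of 308 sides (27.3%) held a clear edge, counting members that kept at least 1000 events. Clear edges lay at a median of 430 kb, from 70 to 950 kb, and the 20 members with an edge on both sides had a median span of 1030 kb. With thinned counts, 58 of the 89 edges were placed within 20 kb of the full-depth position.

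Several promoters lost contact at the same place. Clear edges of the same direction within 20 kb of each other were joined, and 7 positions were shared by at least 3 members. The left edge at position 50242673, 49957 bp from 1600029D21Rik, was shared by Timm8b_Sdhd, AU019823_Pih1d2, 1110032A03Rik_Fdxacb1, Alg9, Ppp2r1b and Sik2, which lay 170 to 590 kb from it. For Timm8b_Sdhd the outer over inner ratio there was 0.299 in a, 0.317 in b and 0.335 in c. For Sik2, the most distant of them, it was 0.267, 0.304 and 0.344. Ratios of at most 0.5 were fixed by the rule for a clear edge, so these values describe the step and do not test it. Pts, just outside the stretch, had its own best left step nearby at position 50226850, with ratios of 0.469, 0.618 and 0.403, which was not clear. The viewpoints of Pts and of the first members lie on the same side of this position. Their depths were 7650 events in Pts, 44949 in Timm8b_Sdhd, 76783 in AU019823_Pih1d2 and 28481 in Dlat. How depth relates to this edge was not tested.

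A second group of 6 members shared a left edge at position 56730269, in coding sequence of the proteoglycan gene Cspg4. These were Gm10658_Sin3a and Sin3a, at the gene of a histone deacetylase scaffold, 1700017B05Rik, Cox5a, a cytochrome c oxidase subunit, Scamp2, and the splicing kinase gene Clk3. The mean ratio was lowest for Clk3, 0.248 ± 0.0304 (SD, n = 3), which lay 870 kb away. A neighbouring left edge at position 56686965, in the UTR of Odf3l1, was shared by Man2c1os_Man2c1, Ppcdc and Fam219b. On the other side, Fam219b, Scamp2, Csk and Pml lost contact at a right edge at position 58151834, by the start of Loxl1, a lysyl oxidase gene. Fam219b and Scamp2 therefore had a shared edge on each side.

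The lowest mean ratios of any member of a shared edge, those of Herc1 and Snx1, were found at the right edge at position 66917904, in intergenic sequence 10692 bp from Tpm1. Its 6 members were Snx1, Fam96a, Dapk2, Herc1, Rab8b and Rps27l. Ratios for Herc1 were 0.235 in a, 0.153 in b and 0.165 in c, and those for Snx1 were 0.152, 0.214 and 0.195, all below the 0.380 to 0.410 of Rab8b, which lay only 150 kb away. Tpm1, whose contacts ran most strongly to the left, has its viewpoint between these members and the edge. Left edges were also shared at position 95339563 by U2surp, Tfdp2_b and Atp1b3, and at position 98862323, by the start of the transcription factor gene Foxl2, by Pik3cb, Cep70, Armc8 and Dbr1. Armc8 and Dbr1 lay more than 600 kb from it and had mean ratios of 0.325 and 0.317.

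The CTCF motifs printed above came from 3 of the 7 shared edges. Of all 20 kb windows of the chromosome, 17.9% held the motif. Each of the 3 edges held a match on both strands, so no preferred direction could be read. Over all clear edges, where a shared edge counts once for each of its members, 18 of 46 left edges and 7 of 43 right edges held a match within 10 kb.

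**Figure D3:**
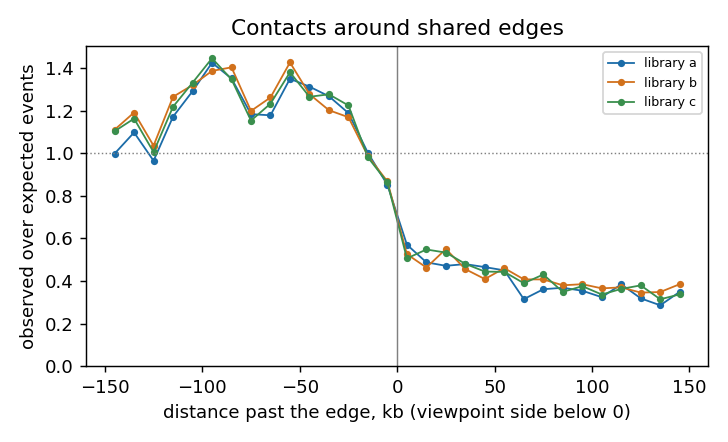
Observed over expected events in 10 kb bins around the 7 shared edges, summed over their members, with distance counted away from the viewpoint and 1 line for each library. The mean value is 0.861 in the last bin before the edge and 0.535 in the first bin after it, a drop that the choice of clear edges fixed.

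Single contacts within 1 Mb were called in 5 kb windows with more events than distance, viewpoint total and the number of fragments in the window predict. The test was an upper-tail negative binomial test with Benjamini-Hochberg adjustment over the windows of all viewpoints. A called window was also above expectation in each library. Of all windows, 0.105% were called. Members had 122 calls in 62712 windows (0.195%), in 52 members, where 21.7% of all viewpoints had a call. The count depended on the dispersion, with 36 calls when no high counts were left out of it and 531 when the highest 1% were, and it was 81 without library c. With member counts thinned to the depth of the others, 51 windows were called (0.0834%), 34 of them among the 122, so the higher share was not seen at like depth. A start site of a protein-coding gene lay in 26.2% of called windows and in 5.46% of those tested. Another viewpoint lay in 21.3% of called windows and in 2.31% of those tested, and what part enrichment of both partners plays in this was not tested.

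Sik2 had the most calls, 15 windows, all to its left, of which 14 ran from Ppp2r1b, a scaffold subunit of protein phosphatase 2A, through Alg9, a mannosyltransferase of N-glycosylation, to 1110032A03Rik. The window at the start of Pts had a ratio of 5.87 over expectation. Dopey1 followed with 13 calls, 10 of them around Ibtk, and Ccnb2, a mitotic cyclin, with 8. Mthfs, an enzyme of folate metabolism, had 6, Cep162 5, and Nptn and Ube2cbp 4 each. Alg9, Adam10, Ttk, Zfp949, Tfdp2_b and U2surp had 3 each. When windows were set against their own surroundings instead (10 to 40 kb away on either side), Sik2, Ccnb2, Cep162 and Nptn had 0 calls and Dopey1 had 1.

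Mthfs, whose windows surround a copy of its own sequence, and Ccnb2, whose highest window (9.78) shares a 30-base word with it, were set aside. Taking the highest window of each other viewpoint, the highest ratios belonged to contacts far from it. The ratio needed for a call varied with distance, and Tpm1 was called 40 kb away at 3.11. The distance of the highest called ratios is therefore not a result about these promoters. Tfdp2_b, a partner of E2F factors, contacted a window at the start of Paqr9, 700 kb to its left. Events were 13 in a, 36 in b and 34 in c, 12.2 times expectation (adjusted p = 0.000114 by the negative binomial test). That window held only 3 fragments, and the adjacent one, with 268 events over 12 fragments, stood at 9.82 times. What part the number of fragments plays in the order of these ratios was not tested. Clk3 contacted intergenic sequence 465 kb to its left with 20, 30 and 40 events, 11.6 times expectation (adjusted p = 1.41e-05 by the negative binomial test). Cep70 contacted Nmnat3, an enzyme of NAD synthesis, 945 kb away with 28, 29 and 30 events, 10.6 times expectation. Ttk contacted an intron of Phip with only 4, 26 and 12 events, the least even of these contacts. Dopey1, Rnf111, Map2k1, Rab8b and Gclc had ratios from 9.66 to 10.4. Against the level of their own surroundings, these windows of Tfdp2_b, Clk3 and Map2k1 were still called, and those of Cep70, Ttk, Dopey1, Rnf111, Rab8b and Gclc were not.

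For Mthfs, the next window, chr9:88613368-88618367 at Gm2382, Gm10634 and Bcl2a1d, held 974, 2309 and 2263 events, 259 times expectation. A single fragment, chr9:88615399-88615582, held 58.0% of them. This fragment overlaps a word shared with the viewpoint, at chr9:88615555-88615584 on the minus strand and chr9:89105212-89105241 in the viewpoint. The count of shared words at this place was 2. The window at chr9:88608368-88613367, beside the shared fragment, reached 21.6. The windows that start at 88603368 and 88618368, which hold no shared word and were not marked as near it, reached 14.5 and 11.03. Reads of a sequence present at both places cannot be assigned to either with certainty, so the value of 259 is not taken as a contact. What part the repeat plays in the fragment with 58.0% of the events, and in the windows around it, was not tested.

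Promoters also converged on the same sites. Windows were tested again against the level of windows 10 to 40 kb away on either side, which removes broad enrichment of a domain. In this test, chosen after the first calls had been seen, 0.0458% of all windows were called, and members had 49 calls (0.0850%), at their greater depth, in 27 members, where 12.6% of all viewpoints had such a call. Of the 122 windows called by distance, 22 were among these 49. The interval chr9:50811000-50820999, at the start of Sik2, a salt-inducible kinase, was contacted by 5 members. Alg9 had 83, 110 and 98 events in a window there, 2.88 ± 0.440 times its surroundings (SD over 3 libraries), and the window of 1110032A03Rik_Fdxacb1 had 51, 93 and 91 events, 3.28 ± 0.379 times. AU019823_Pih1d2 reached 3.18 ± 0.386, Timm8b_Sdhd 3.12 ± 0.465 and Ppp2r1b 3.03 ± 0.140. The Ppp2r1b window holds a fragment that shares a 30-base word with the viewpoint. Of the other members on this side, Dlat, a subunit of pyruvate dehydrogenase, and Cryab, a small heat shock protein, were not called. Over the whole interval, the summed level of Dlat was 2.17 times its surroundings, close to the 2.21 of Timm8b_Sdhd, which was called, and that of Cryab was 1.41.

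**Figure D4:**
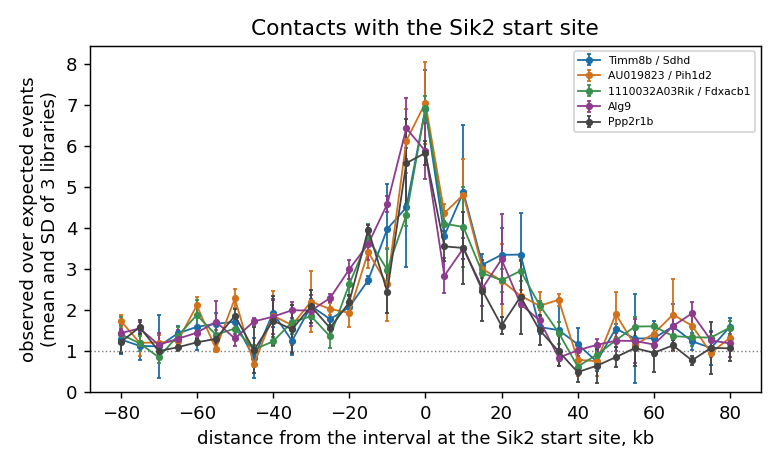
Observed over expected events in 5 kb windows against distance from the interval at the Sik2 start site, for the 5 members called there (points, mean of 3 libraries; bars, SD). All 5 profiles are highest within 5 kb of the interval, where Alg9 reaches 6.44 and AU019823_Pih1d2 7.06. The members were chosen for a window there above its surroundings, so a peak was fixed by the choice.

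By the distance expectation, the contact was also called from the other partner. Seen from Sik2, the windows that hold the viewpoints of 1110032A03Rik_Fdxacb1 and Alg9 were called at 5.19 and 4.45 times the distance expectation, and seen from those members, the Sik2 window was called at 6.87 and 5.83. From Sik2, however, 0 windows were called against the local background, the test that defined the interval. The 5 members and Sik2 also share the left edge at position 50242673. Over all members, called 5 kb windows gave 27 directed pairs of members, counting each member in a window, and 10 of these were called in the opposite direction as well. The ratio in the opposite direction was above 1 in all 27, but the share above 1 over pairs that were not called was not measured. Targeted fragments themselves are not listed as contacts, so these values rest on the fragments around them.

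Snx14, a sorting nexin, Syncrip, an RNA-binding protein, and Zfp949 met at chr9:89101372-89116371, beside the Mthfs viewpoint, where Snx14 had 28, 39 and 38 events in its highest window, 7.60 ± 1.96 times its surroundings. Syncrip and Zfp949 were also called at chr9:88605285-88618367, the site that repeats Mthfs sequence, so the split between the latter pair of sites is uncertain. No CTCF motif match lay in any of these 3 intervals, counting that repeated site. Since only 9.54% of 10 kb windows and 17.9% of 20 kb windows of the chromosome held the motif, this absence says little.

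Between 1 and 10 Mb, contacts were tested in 50 kb windows. Of all such windows 0.366% were called, and members had 290 calls in 56880 (0.510%), in 64 members, where 46% of all viewpoints had a call. Without library c there were 175 calls and without b 191, and 100 kb windows gave 122. With thinned counts 134 were called (0.242%), 92 of them among the 290. A start site lay in 75.2% of called windows and in 34.0% of those tested. The calls were unevenly spread. The 51 members from Gclc onward held 210 calls in 18360 windows (1.14%), and the members before it held 80 in 38520 (0.208%). The cut at Gclc was not among the planned comparisons, so this contrast describes the calls and does not test them.

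The highest ratios in this range came from a small set of viewpoints. The 50 kb windows were not set against their own surroundings, so broad enrichment of a region was not removed here. Ibtk, an inhibitor of Bruton's tyrosine kinase, contacted a window at the start of Paqr9 9825 kb to its right with 69 events in a, 114 in b and 136 in c, 16.0 times expectation (adjusted p = 1.15e-13 by the negative binomial test). It also contacted the start of Tbc1d2b 4525 kb away, with 85, 140 and 141 events and a ratio of 10.1. Fbxo9, an F-box protein of ubiquitin ligases, contacted the window of Ibtk 7675 kb to its right with 75, 118 and 138 events and a ratio of 11.8. Phip and Tfdp2_b also contacted Tbc1d2b, with ratios of 10.1 and 9.59. In these 5 windows no fragment held more than 5.88% of the events, so no single fragment made the call.

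Some of these contacts were seen from both partners. The share called in both directions over other viewpoints, or over pairs that were not called, was not measured. Of 168 called 50 kb windows that held another member, counted for each member in them, 60 were called in the opposite direction, which gives 30 mutual pairs among 21 members. In 26 pairs both members lay from Gclc onward, by the same unplanned cut, where 210 of the 290 calls had been made. Ibtk took part in 8 pairs and Phip in 7, and Ttk, Dopey1, Snx14, Zfp949 and Morf4l1, a chromatin subunit, in 4 each. Ibtk and Fbxo9 had ratios of 8.07 and 11.8 toward each other, over 7687 kb. Phip and Syncrip had 6.18 and 6.10 over 5509 kb, and Ibtk and U2surp 4.92 and 5.54 over 9770 kb. Adam10, a membrane metalloprotease, was paired with Dennd4a and Herc1 on its left and with Fbxo9 on its right.

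Contacts beyond 2 Mb followed the gene content of the partner. Windows of 500 kb were placed in 3 classes by the number of protein-coding start sites, at most 2 in the poorest and more than 6 in the densest. In members, observed over expected events were 0.569 ± 0.0188 in poor windows, 1.09 ± 0.00123 in middle windows and 1.41 ± 0.0243 in dense windows (SD, n = 3). The rest of chromosome 9 had 0.686 ± 0.0256, 1.11 ± 0.00534 and 1.31 ± 0.0277. The ratio of dense to poor windows was 2.63, 2.40 and 2.41 in members and 2.04, 1.84 and 1.84 in the rest, in libraries a, b and c, so that the ranges did not overlap. Position along the chromosome also differs between these sets of viewpoints, and its part in the difference was not tested.

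Gene number was a poor guide where the genes were olfactory receptors, which are silent outside sensory neurons. The 9 windows with such genes stood at 0.422 ± 0.0314 (SD, n = 3), below the poor class, and dense windows without them at 1.51 ± 0.0286. The exception among the 9 was chr9:20000001-20500000, with 5 receptors among 13 genes, at 1.68. The window chr9:38000001-38500000, whose 23 genes are all olfactory receptors, was at 0.279, while chr9:21000001-21500000, with 16 genes and none of them a receptor, was at 2.74. The class of olfactory windows was chosen after the window values had been seen.

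Members differed in how far they followed this order. The log2 ratio of dense to poor windows had a median of 1.59 and was above 0 in all 3 libraries in 154 members. It was highest for Adam10, with 2.47 in a, 2.27 in b and 2.30 in c, followed by Rab8b and Tpm1 with means of 2.32 and 2.27. It was below 0 in every library in 3 members that lie side by side, Mthfs, Tmed3 and Rasgrf1. Mthfs had -0.40 in a, -0.55 in b and -0.62 in c. Rasgrf1, an exchange factor of Ras, had -0.30, -0.45 and -0.46, and Tmed3, a cargo protein of the early secretory pathway, -0.06, -0.24 and -0.29. These 3 were the members that contacted poor windows more than dense ones in every library. Plscr4, Bckdhb and Plscr1, at 0.08 ± 0.18, 0.12 ± 0.10 and 0.15 ± 0.14 (SD, n = 3), were close to even. Across the 158 members, which share libraries and windows, the correlation of this ratio with the number of genes in the member's own window was 0.15, and that between libraries a and b was 0.99. The first principal component of the distal profiles held 46.3% of their variance and correlated at 0.99 with the ratio.

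**Figure D5:**
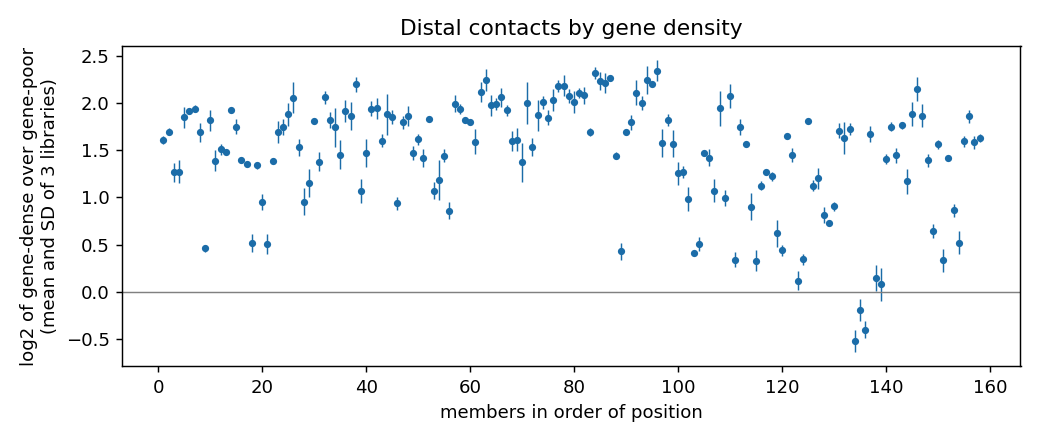
Log2 ratio of contacts with gene-dense over gene-poor windows more than 2 Mb away, for members in order of position (points, mean of 3 libraries; bars, SD). Most members lie above 0, and Mthfs, Tmed3 and Rasgrf1, with means of -0.52, -0.20 and -0.41, lie together below it.

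The stretch was also seen from viewpoints outside it. Usp28, Zw10 and Pts, within 2 Mb of the lower end, had 1.44 ± 0.0412 times the expected events inside the stretch and 0.783 ± 0.0395 on the opposite side at like distances (SD, n = 3), from 392 to 796 events into it in a library. Nck1, Stag1 and Pccb, at the upper end, had 1.21 ± 0.0206 into the stretch and 1.03 ± 0.0351 away from it. The value into the stretch was higher in every library at both ends, and what part enrichment of fragments inside it plays was not tested.

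By function, members with a called 5 kb window were spread over all lists. They were 10 of 21 in DNA replication, repair and cell cycle (Ccnb2, Ttk and Ibtk among them). That list was drawn broadly and includes genes given other functions above, such as Ibtk and Dbr1. Other lists were broad too, with Cryab under ubiquitin and proteasome and Dis3l under protein synthesis. Some members count in more than 1 list, such as Copb2_4930579K19Rik, which had a call, in ubiquitin and proteasome and in membrane traffic. Members with a call were 6 of 16 in transcription and chromatin and 5 of 15 in mitochondrial enzymes and import. They were 4 of 13 in ubiquitin and proteasome and in membrane traffic, and 3 of 13 in signalling. They were 3 of 10 in protein synthesis and 2 of 3 in cytoskeleton and adhesion, against 52 of 158 members. A clear edge was present in 1 of 10 protein synthesis members and in 8 of 13 of membrane traffic, against 69 of 158. The median log2 preference for dense windows ran from 1.37 in mitochondrial enzymes and import to 2.27 in the 3 members of cytoskeleton and adhesion. No list was tested as a set.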

How the data were processed

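The authors trimmed reads with Trim Galore and aligned them to mm9 with Bowtie, per the labels, whose versions are not given in the sources used here. The deposited signal values are unique ligation events per 100000 cis events of a viewpoint, in 1 column for each of 3 libraries. For each viewpoint and library the lowest nonzero value was read as 1 event and the others divided by it, and 100% of values came out whole in each library (tolerance 0.01). Depth was thereby known for every viewpoint. Fragments were taken from the NCBIM37 genome (mm9) cut at DpnII sites, and 26 rows off this map were left out. Genes came from GENCODE vM1 on the same build.

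Calls, edges and expectations were fitted on all 6718 viewpoints with at least 1000 events. The negative binomial dispersion was taken by moments for each distance leaving out the top 0.1% of standardised counts, and the adjusted p threshold was 0.05. Members were searched for words of 30 bases shared with other fragments. Scripts used Python 3.11.15, numpy 2.4.6, scipy 1.17.1 and pandas 2.3.3 and were tested on simulated data. The planned unit was signal, and the count test was run on the events so recovered. Members and gene lists were chosen with earlier results of these data known. Named items were the deepest, shallowest and bordering viewpoints, the members with most calls, the calls with the highest ratios, members of shared edges and the extremes of side and distance shares. Members of the contacted intervals, mutual pairs and the preference for gene-dense windows were named after their values had been seen. The cut at Gclc was not planned. Alternatives covered window sizes, dispersion, thinning, thresholds and leaving out each library. A contacted interval is not reported here.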

Additional observations from a re-analysis of the deposited data

Results flagged for a closer look

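Under the name Ick, which 2 viewpoints of the stretch share, the table held 51062 cis events, of which 11064 came from a, 20065 from b and 19933 from c. They were singled out because no comparison above uses them, and they could not be divided between the 2 fragments.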

How the results depend on the processing

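No samples could be paired because the libraries form 1 group and the columns carry no replicate numbers. Within a library, values of members and of other viewpoints were set side by side. Of 68 alternatives, 38 kept the reported value within the spread between libraries, or within 1.5 times for counts, and 30 moved it. Calls within 1 Mb depended most on the dispersion. The 122 windows became 36 with no counts left out of it, 531 with the highest 1% left out and 13479 with Poisson counts. They became 235 with 2 kb and 69 with 10 kb windows, 77 with the expectation per base, 51 with thinned counts and 49 with local background (22 of them among the 122), and 81 to 103 with each library left out, lowest without library c. The 290 calls from 1 to 10 Mb became 122 with 100 kb windows, 10503 with Poisson counts, 901 with the highest 1% left out and 134 when thinned, and 175 to 275 with each library left out, 175 without c and 191 without b. Agreement between libraries (0.963) was 0.922 with 2 kb windows, 0.979 with 10 kb windows, 0.740 with single fragments and 0.710 when thinned. The median share on the larger side was 55.7% up to 200 kb, and 56.0% to 56.8% with each library left out. Clear edges numbered 165 at a ratio of 0.67 and 20 at 0.33, and shared edges 19 with at least 2 viewpoints. The ratio of dense to poor windows (2.48) was 2.17 with 1 Mb windows, 2.61 per base, 1.87 from 2 to 10 Mb and 2.65 with olfactory windows set apart. The contacts into over away from the stretch at the lower end (1.84) were 2.55 from viewpoints within 1 Mb and 1.37 within 4 Mb. Both ratios, and that at the upper end, stayed above 1 in every alternative run. The causes of these changes were not tested, other than fewer events when thinned. The local background, the separate olfactory class and the averaging of b and c were chosen after seeing the data.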
